A study of Rattus norvegicus with 18 samples.

Results

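The genes described here encode the catalytic subunits of AMP-activated protein kinase (AMPK) and regulators of mitochondrial biogenesis, measured in rat hearts after doxorubicin with and without AICAR. They were chosen by name, with earlier results of these data known, as 5 Ensembl identifiers: Prkaa1 (ENSRNOG00000012799), Prkaa2 (ENSRNOG00000007706), Ppargc1a (ENSRNOG00000004473), Tfam (ENSRNOG00000000613) and Sirt1 (ENSRNOG00000000427). Of these, 4 matched a row among the 32545 identifiers used, and all 4 passed the filter on low values. Sirt1, an NAD-dependent deacetylase, is not analysed here.

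AMPK is a kinase that senses a fall in cellular energy. It is a complex of a catalytic alpha subunit with regulatory beta and gamma subunits, and the alpha subunit exists in 2 forms, alpha 1 from Prkaa1 and alpha 2 from Prkaa2, of which alpha 2 is the main form in heart and skeletal muscle. Active AMPK turns on fatty acid oxidation and glucose uptake and acts on PGC-1 alpha, the product of Ppargc1a, a coactivator that raises transcription of nuclear genes for mitochondrial proteins. One of the factors downstream of PGC-1 alpha is TFAM, the product of Tfam, which packages mitochondrial DNA and is needed to transcribe it. AMPK is regulated largely by phosphorylation and nucleotide binding, which mRNA levels do not measure.

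The hearts came from male Wistar rats, an outbred strain, of 250 g at the start, in 3 groups of 6 animals with 1 library each. Rats of the saline group received 5 weekly intravenous injections of sterile saline. Whether they also had subcutaneous injections is not stated. Rats of the DOX+saline group received 5 weekly intravenous injections of doxorubicin, an anthracycline cancer drug that injures heart muscle, at 3 mg/kg per week, with subcutaneous saline, and rats of the DOX+AICAR group received the same doxorubicin with subcutaneous AICAR at 0.5 g/kg, a nucleoside that cells convert to an AMP mimic which activates AMPK. No group received AICAR without doxorubicin, and no source used here gives the schedule of AICAR, the animals' age or the part of the heart taken. The study asked what doxorubicin does to the heart and whether AICAR protects it.

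Levels are TPM (transcripts per 1000000): reads per length of gene model, set to the same sum in every library, so that levels can be compared between genes and each change is one of share. Libraries held 20.6 to 31.3 M reads (M, 1000000) assigned to genes, as recovered from the TPM values. The saline rats carry another series of animal numbers than the doxorubicin rats, and whether they were a separate cohort is not stated; if so, cohort and doxorubicin cannot be told apart. In these bulk samples, fewer cells of a type and less RNA per cell cannot be told apart either, and since the identifiers carry no gene names, heart markers, markers of other cell types and the other genes of the AMPK and mitochondrial pathways are not analysed here. Each animal is a separate sample per the labels, and the p-values measure the spread between animals.

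In saline hearts the order of the levels was Prkaa2, Tfam, Ppargc1a and Prkaa1. Prkaa2 ranged from 155 to 173 TPM with a median of 167, which put it above 92.5% to 93.5% of the 14732 genes that reached 1 TPM in 6 or more libraries. Tfam ranged from 87.3 to 99.2 TPM with a median of 93.3, and Ppargc1a from 50.9 to 59.8 TPM with a median of 57.7. Prkaa1 was the scarcest, at 12.5 to 14.5 TPM with a median of 13.6, near the middle of all genes. This order held in every group, with no overlap between the ranges of neighbouring genes. Alpha 2 was the main catalytic form by mRNA in every heart. These values rest on 646 to 1288 reads of Prkaa1 per library, 3582 to 7212 of Prkaa2, 1215 to 2544 of Ppargc1a and 1408 to 2249 of Tfam. The gene models behind the TPM had recovered lengths of 4674 bp for Prkaa1, 2652 bp for Prkaa2, 2737 bp for Ppargc1a and 1520 bp for Tfam. How well these models cover the transcripts in the heart was not tested.

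**Figure D1:**
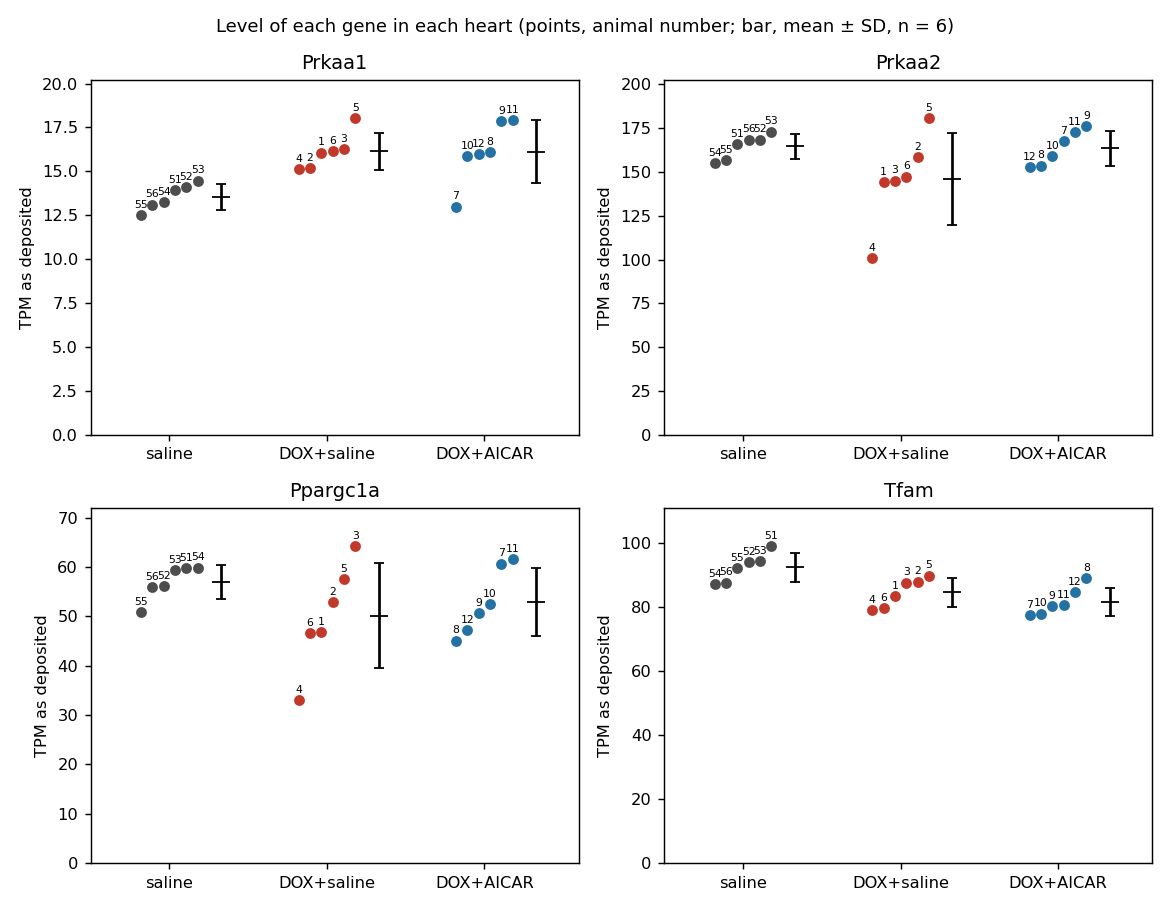
TPM of Prkaa1, Prkaa2, Ppargc1a and Tfam (vertical axes from 0) in each heart by group, with the animal number beside each point and the mean ± SD (n = 6) beside each group. The 6 DOX+saline points of Prkaa1 lie above all 6 saline points, and DOX+saline animal 4 lies lowest of its group in all 4 panels.

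The letters upstream of the transcription starts differ between these genes. They are shown for the catalytic pair, whose ratio changed after doxorubicin, for Ppargc1a, which was low in the same heart as Prkaa2, and for Tfam, whose level fell. Sequences are from RefSeq on build GRCr8 (the reads were aligned to Rnor_6.0), written 5′ to 3′ on the strand of the gene. Capitals mark GC boxes (GGGCGG on either strand) in Prkaa1 and Prkaa2, the cyclic AMP response element TGACGTCA in Ppargc1a, and GC boxes together with the GABP/ETS-type motif CCGGAAG in Tfam.
Prkaa1, chr2:55967575-55967764, plus strand: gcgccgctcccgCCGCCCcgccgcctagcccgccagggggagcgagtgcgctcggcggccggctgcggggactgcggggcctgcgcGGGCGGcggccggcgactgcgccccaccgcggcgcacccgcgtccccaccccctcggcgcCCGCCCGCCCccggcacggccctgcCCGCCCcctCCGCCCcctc
Prkaa2, chr5:125108400-125108429, minus strand: caggcgtccccgtcCCGCCCcccgggcccg
Ppargc1a, chr14:63634088-63634187, plus strand: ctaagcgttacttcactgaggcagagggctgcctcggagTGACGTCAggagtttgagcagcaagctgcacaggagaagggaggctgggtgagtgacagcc
Tfam, chr20:17355223-17355372, plus strand: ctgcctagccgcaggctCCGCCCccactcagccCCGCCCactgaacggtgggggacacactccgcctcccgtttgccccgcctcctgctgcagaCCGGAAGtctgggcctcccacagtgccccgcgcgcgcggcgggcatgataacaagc

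Within 250 bases before the start, Prkaa1 had 6 GC box matches, some of them overlapping, Prkaa2 had 1 and Tfam 2, a motif found in 30.5% of 33469 promoters of that length. Ppargc1a had none of these, and it had TGACGTCA, present in 1.59% of promoters, which also contains the shorter TGACG once on either strand (18.2% of promoters). Tfam had CCGGAAG, present in 7.27%. None of the 4 windows held the E-box CACGTG (5.59% of promoters), the ERR-type motif TCAAGGTCA (0.388%), or the NRF1-type (4.8%) or MEF2-type (3.41%) palindromes searched, on either strand. GC content was 86.4% in Prkaa1, 72.8% in Prkaa2, 68.4% in Tfam and 50.4% in Ppargc1a, against a median of 51.2% over all promoters. The number of CpG dinucleotides was 45 in Prkaa1, 33 in Prkaa2, 18 in Tfam and 3 in Ppargc1a, against a median of 5. A match describes the letters only, and no binding was measured.

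After doxorubicin alone, on the values as deposited, Prkaa1 rose to 1.18 times and Tfam fell to 0.916 times its saline level. These folds come from the fit to log2(TPM + 1). The lower means of Prkaa2 and Ppargc1a did not pass the test. In DOX+saline against saline 8538 of 14732 genes (58%) were called at a limma adjusted p below 0.05, 38% higher and 20% lower, so 2 called genes of 4 is near the share over all genes. Of all calls 65.5% were higher as deposited, 51.6% with median-of-ratios factors and 41.0% when quantile normalized. The median log2 change of the 4 genes was -0.16, against 0.10 over all genes tested.

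Prkaa1, the alpha 1 gene, had 15.1 TPM in the lowest DOX+saline heart, a median of 16.1 and 18.05 in the highest. All 6 lay above the highest saline heart, where 32.2% of all genes had groups that did not overlap. Its mean was 13.6 ± 0.729 TPM in the 6 saline hearts and 16.1 ± 1.06 TPM in the 6 hearts of DOX+saline (± SD). On the log2 scale it rose by 0.24 with an SE of 0.07 (limma adjusted p = 0.00586). How much it rose depended on how libraries were scaled. With median-of-ratios factors the log2 change was 0.14 (limma adjusted p = 0.0394), and with quantile normalization it was 0.08 and lost the call (limma adjusted p = 0.278). Quantile normalization moved the median of all genes by -0.16, and relative to that median Prkaa1 was higher by 0.13 under each of the 3 scalings. As deposited, its change was above that of 63.8% of all genes. Its level lay above 44.2% to 47.4% of genes in saline hearts and 46.3% to 50.4% in DOX+saline hearts, so these ranks overlapped.

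Prkaa2, the alpha 2 gene, had 101 TPM in the lowest DOX+saline heart, a median of 146 and 181 in the highest. The range was wider than in saline and enclosed it, with 4 of 6 hearts below the lowest saline heart and 1 above the highest. Saline hearts had a mean of 165 ± 7.11 TPM and DOX+saline hearts one of 146 ± 26.3 TPM, and the log2 change of -0.19 (SE 0.09, 95% interval -0.39 to 0.01) had a limma adjusted p of 0.0898. It passed the threshold with median-of-ratios factors (-0.29, limma adjusted p = 0.0125), with quantile normalization (-0.22, 0.0491), with library weights (-0.18, 0.0324) and without DOX+saline animal 5, the highest (-0.26, 0.0175). Without DOX+saline animal 4, the lowest, it was -0.09 (limma adjusted p = 0.200). Of 27 alternatives 23 gave no call, among them the fit on only the 12 libraries compared (limma adjusted p = 0.142).

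Ppargc1a, the gene of PGC-1 alpha, had 33.1 TPM in the lowest DOX+saline heart, a median of 49.8 and 64.2 in the highest. DOX+saline hearts fell on both sides of saline, 3 of 6 below the lowest and 1 above the highest. Saline hearts averaged 57.0 ± 3.47 TPM against 50.1 ± 10.7 TPM after doxorubicin, a log2 change of -0.21 (SE 0.12, 95% interval -0.46 to 0.04, limma adjusted p = 0.146). The threshold was passed with median-of-ratios factors (-0.30, limma adjusted p = 0.0362), with library weights (-0.24, 0.0283) and without DOX+saline animal 3 (-0.28, 0.0428). Without DOX+saline animal 4 the log2 change was -0.10 (limma adjusted p = 0.388). No call was made in 24 of 27 alternatives, among them the fit on only the 12 libraries compared (limma adjusted p = 0.173).

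Tfam, the mitochondrial DNA packaging and transcription factor, had 79.2 TPM in the lowest DOX+saline heart, a median of 85.6 and 89.96 in the highest. The groups overlapped, with 3 of 6 DOX+saline hearts below the lowest saline heart. The mean was 92.6 ± 4.49 TPM without and 84.7 ± 4.60 TPM with doxorubicin, and the gene fell by 0.13 on the log2 scale (SE 0.04, limma adjusted p = 0.0208). The call was narrow: it was lost without saline animal 51 (limma adjusted p = 0.0537), DOX+saline animal 4 (0.0501) or DOX+saline animal 6 (0.0525). With median-of-ratios factors the log2 change was -0.22 (limma adjusted p = 0.00043) and with quantile normalization -0.17 (0.00308).

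**Figure D2:**
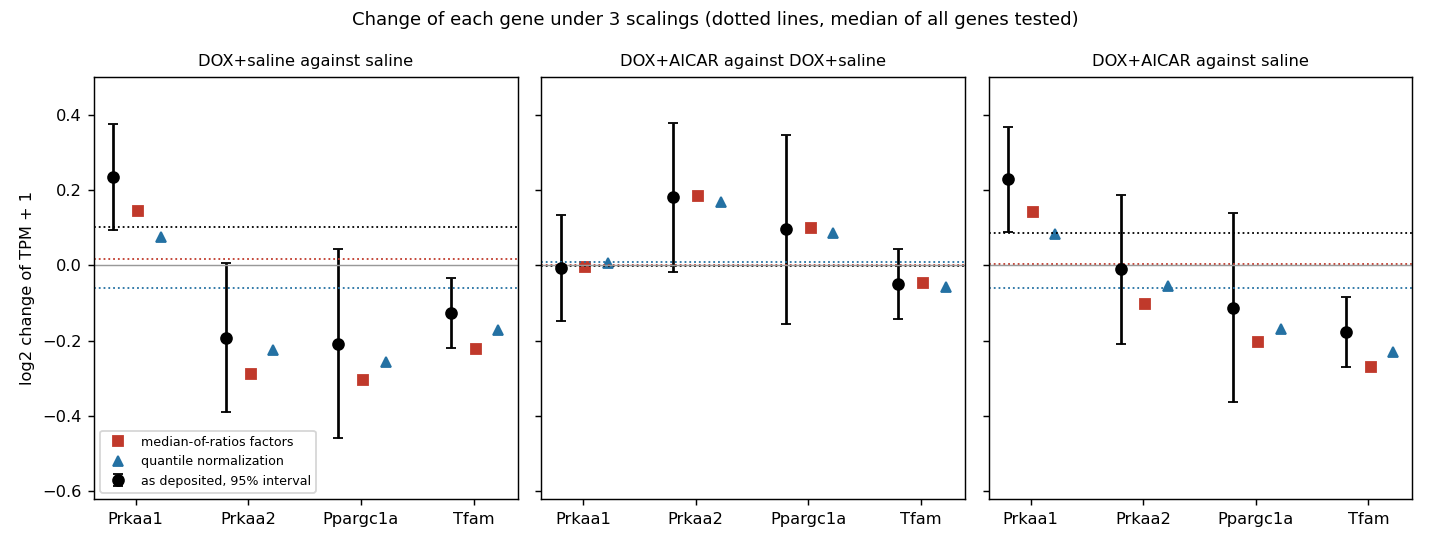
Log2 change of TPM + 1 (vertical axis) of each gene in the 3 comparisons, on the values as deposited (circles with 95% intervals of the limma fit), with median-of-ratios factors (squares) and after quantile normalization (triangles), and dotted lines for the median of all genes tested under each scaling. In DOX+saline against saline Prkaa1 lies above its dotted line and the other 3 genes below theirs under each scaling, and in DOX+AICAR against DOX+saline all 4 intervals include 0.

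The balance of the catalytic forms was compared within each library, where the scaling of a library cancels. In saline hearts Prkaa2 was 11.7 to 12.9 times as abundant as Prkaa1, with a mean ratio of 12.2 ± 0.439 (SD, n = 6). In DOX+saline hearts the ratio was 6.65 to 10.4, with a mean of 9.02 ± 1.31, and no DOX+saline heart reached the lowest saline heart. How often the ratios of other gene pairs separate in this way was not computed. The log2 ratio fell by 0.44 after doxorubicin (exact permutation p = 0.00216, the smallest that 6 against 6 allows, adjusted p = 0.00649 over 3 comparisons). Leaving out each animal gave log2 differences of -0.49 to -0.36, all past the threshold, and -0.36 was the value without DOX+saline animal 4.

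Of the summed catalytic TPM, Prkaa1 made up 7.60 ± 0.248% in saline hearts, 10.1 ± 1.53% in hearts of DOX+saline and 8.97 ± 0.884% in hearts of DOX+AICAR (SD, n = 6). In the same order the sum of Prkaa1 and Prkaa2 was 178 ± 7.68, 162 ± 27.05 and 179.7 ± 10.7 TPM. It did not differ past the threshold in any of the 3 comparisons (exact permutation, adjusted p = 0.299 for DOX+saline against saline, 0.299 for DOX+AICAR against DOX+saline and 0.775 for DOX+AICAR against saline). With median-of-ratios factors the first difference moved from -16.0 to -27.9 TPM (exact permutation adjusted p = 0.0779) and the last from 1.54 to -10.2 TPM (exact permutation adjusted p = 0.139). Without DOX+saline animal 5, whose sum was the highest of all hearts, the first of these differences was -23.3 TPM and the second 24.9 TPM, each with an exact permutation adjusted p of 0.013.

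**Figure D3:**
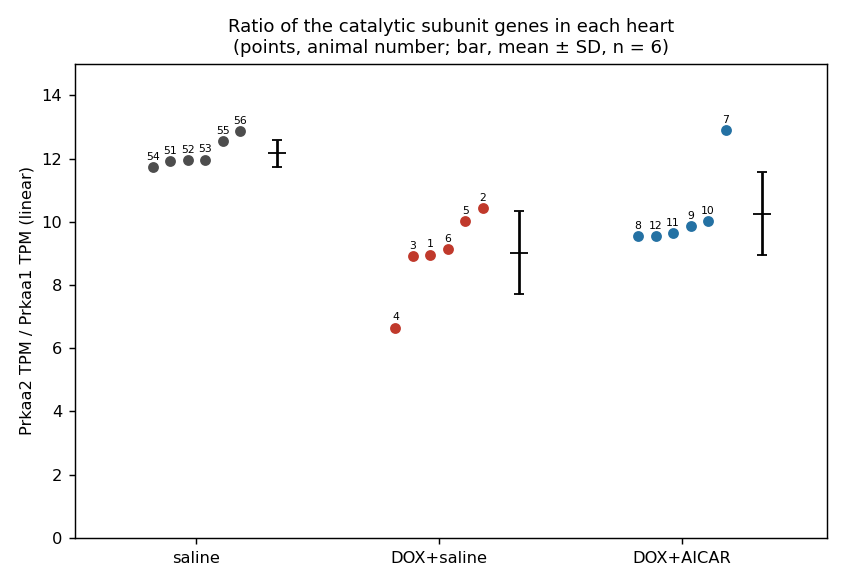
Ratio of Prkaa2 TPM to Prkaa1 TPM (linear axis from 0) in each heart by group, with animal numbers and mean ± SD (n = 6). All DOX+saline hearts and 5 of 6 DOX+AICAR hearts lie below the lowest saline heart at 11.7, and DOX+AICAR animal 7 lies at 12.9.

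The same comparison for the other 5 pairs of genes (15 tests, adjusted together) showed a shift of Prkaa1 against both mitochondrial regulators after doxorubicin alone. The log2 ratio of Prkaa1 to Tfam was higher in DOX+saline than in saline by 0.38, and that of Prkaa1 to Ppargc1a by 0.46, both without overlap between the groups (exact permutation adjusted p = 0.0108 each). The share of other gene pairs without overlap was not computed, and 32.2% of single genes had groups that did not overlap. Both ratios contain Prkaa1, whose own groups did not overlap, so they are not independent of its rise. Among Prkaa2, Ppargc1a and Tfam the log2 ratios differed by 0.02 for Prkaa2 to Ppargc1a, -0.06 for Prkaa2 to Tfam and -0.08 for Ppargc1a to Tfam (exact permutation adjusted p = 0.831, 0.686 and 0.679). No unequal change between those 3 genes was detected, which does not show that they changed alike.

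The effect of AICAR on these genes under doxorubicin was read from the DOX+AICAR and DOX+saline hearts, a comparison that shares its DOX+saline libraries with the first. None of the 4 genes was called, where 196 of 14732 genes (1.33%) were called by limma, 0.577% higher and 0.753% lower, and 0 of the 4 had an unadjusted p below 0.05. Voom on recovered reads also called 0 of the 4, as did each of the other alternatives tried for this comparison. None of the 4 had groups without overlap, against 1.51% of all genes.

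Prkaa2 had 153 TPM in the lowest DOX+AICAR heart, a median of 163 and 176 in the highest, all within the DOX+saline range of 101 to 181 TPM. Against the DOX+saline mean of 146 ± 26.3 TPM, DOX+AICAR hearts averaged 164 ± 9.96 TPM, a log2 difference of 0.18 (SE 0.09, 95% interval -0.02 to 0.38, limma adjusted p = 0.330). Without DOX+saline animal 4 it was 0.08 (limma adjusted p = 0.524). The ratio of Prkaa2 to Prkaa1 was 9.55 to 10.02 in 5 DOX+AICAR hearts and 12.9 in animal 7, and its log2 difference from DOX+saline was 0.19 (exact permutation p = 0.126, adjusted p = 0.126). That difference passed the threshold only when DOX+saline animal 2 was left out, among the 18 animals (0.24, exact permutation adjusted p = 0.026).

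Prkaa1 had 12.98 TPM in the lowest DOX+AICAR heart, a median of 16.0 and 17.9 in the highest. Their mean of 16.1 ± 1.79 TPM, against 16.1 ± 1.06 TPM without AICAR, gave a log2 difference of -0.01 (SE 0.07, 95% interval -0.15 to 0.13, limma adjusted p = 0.972). Only animal 7 lay outside the DOX+saline range, below it.

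Ppargc1a had 45.1 TPM in the lowest DOX+AICAR heart, a median of 51.5 and 61.7 in the highest, inside the DOX+saline range. Its mean of 52.9 ± 6.89 TPM differed from DOX+saline by 0.10 on the log2 scale (SE 0.12, 95% interval -0.16 to 0.35, limma adjusted p = 0.723). The sign turned without DOX+saline animal 4 (-0.02).

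Tfam had 77.7 TPM in the lowest DOX+AICAR heart, a median of 80.5 and 89.1 in the highest. The mean of 81.8 ± 4.39 TPM was below that of DOX+saline, with a log2 difference of -0.05 (SE 0.04, 95% interval -0.14 to 0.04, limma adjusted p = 0.598). For Prkaa1 and Tfam the 95% intervals lay within 0.15 of 0 on the log2 scale, while those of Prkaa2 and Ppargc1a reach 0.38 and 0.35.

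Rats given both drugs were then set against saline rats, a comparison that shares its saline libraries with the first. Of all genes 7850 of 14732 (53.3%) were called by limma, 34.8% higher and 18.4% lower, and 2 of the 4 were called. None of the 4 had groups without overlap, against 34.5% of all genes. Prkaa1 rose by 0.23 on the log2 scale (SE 0.07, limma adjusted p = 0.00785), and 5 of 6 DOX+AICAR hearts lay above the highest saline heart. With quantile normalization this was 0.08 and lost the call (limma adjusted p = 0.245).

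Tfam fell by 0.18 on the log2 scale from saline to DOX+AICAR (SE 0.04, limma adjusted p = 0.00274), with 5 of 6 hearts below the lowest saline heart. The call held in all 27 alternatives of this comparison, with log2 changes of -0.27 to -0.16. Prkaa2 had a log2 difference of -0.01 from saline (95% interval -0.21 to 0.19, limma adjusted p = 0.939) and Ppargc1a one of -0.11 (95% interval -0.36 to 0.14, limma adjusted p = 0.454). These intervals use 1 spread over all groups, including the wider DOX+saline group. The SE was 0.09 for Prkaa2 and 0.12 for Ppargc1a, against 0.04 and 0.08 with only the 12 libraries compared. The log2 ratio of Prkaa2 to Prkaa1 differed from saline by -0.25 (exact permutation p = 0.0152, adjusted p = 0.0227), and that of Prkaa1 to Tfam was higher by 0.42 without overlap (exact permutation adjusted p = 0.0108). That of Prkaa1 to Ppargc1a differed by 0.36 with overlap between the groups and did not pass (exact permutation adjusted p = 0.0568). The share of other gene pairs without overlap was not computed here either.

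The spread between hearts of a group was widest in Prkaa2 and Ppargc1a in DOX+saline. The SD of log2(TPM + 1) of Prkaa2 was 0.06 in saline hearts, 0.28 under doxorubicin alone and 0.09 under doxorubicin with AICAR, and that of Ppargc1a was 0.09, 0.32 and 0.18 (n = 6 each). Prkaa1, at 0.07, 0.09 and 0.16 in the same order, was widest under doxorubicin with AICAR. Tfam had 0.07, 0.08 and 0.08. Over all genes the median SD was 0.11, 0.17 and 0.14. The ratio of the DOX+saline SD to the saline SD was 4.48 for Prkaa2 and 3.65 for Ppargc1a, above those of 96.2% and 93.4% of genes, while Tfam (1.13) and Prkaa1 (1.20) lay below the median of 1.40. The ratio of the DOX+AICAR SD to the saline SD was 2.18 for Prkaa1 and 2.06 for Ppargc1a, above those of 87.4% and 85.3% of genes. It was 1.40 for Prkaa2 and 1.09 for Tfam, with a median of 1.15 over all genes. Without DOX+saline animal 4 the DOX+saline SD was 0.14 for Prkaa2 and 0.20 for Ppargc1a, with a median of 0.16 over all genes. These are descriptions, with no test of the spread.

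**Figure D4:**
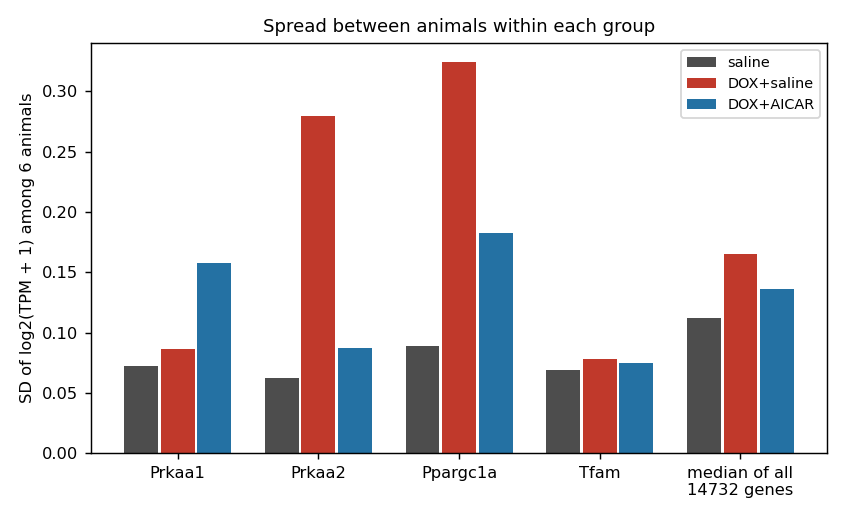
Standard deviation of log2(TPM + 1) among the 6 animals of each group (bars from 0) for the 4 genes and for the median of all 14732 genes tested. The DOX+saline bars of Prkaa2 (0.28) and Ppargc1a (0.32) are the tallest, and those of Prkaa1 and Tfam lie below the median gene.

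DOX+saline animal 4 had the lowest value of its group in all 4 genes, at 101 TPM of Prkaa2 where the next lowest had 144, and 33.1 TPM of Ppargc1a where the next lowest had 46.6. For Prkaa1 and Tfam it was close to the next animals, at 15.1 against 15.2 TPM and 79.2 against 79.7 TPM. Its library held 25.7 M reads, inside the range of the group. With median-of-ratios factors it remained lowest in Prkaa1, Prkaa2 and Ppargc1a, and animal 6 was lowest in Tfam.

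Relations between the genes across animals were examined within each group, 18 in all, and none passed the threshold after adjustment. The largest in DOX+saline, on the values as deposited, were Ppargc1a with Tfam (Pearson r = 0.84, exact permutation p = 0.0208, adjusted p = 0.263; Spearman rho = 0.83, exact permutation p = 0.0583, adjusted p = 0.446) and Prkaa2 with Ppargc1a (Pearson r = 0.83, exact permutation p = 0.0667, adjusted p = 0.356; Spearman rho = 0.54, exact permutation p = 0.297, adjusted p = 0.446). Next by Pearson r was Prkaa2 with Tfam (0.76, exact permutation p = 0.0292, adjusted p = 0.263), with a Spearman rho of 0.83 (exact permutation p = 0.0583, adjusted p = 0.446). Without the 2 animals farthest from the median of the first gene, r was 0.93 for Ppargc1a with Tfam and 0.01 for Prkaa2 with Ppargc1a, so the latter rests on animals 4 and 5. For Prkaa2 with Tfam r was then 0.42, and with median-of-ratios factors and all animals 0.66. With median-of-ratios factors Ppargc1a with Tfam had a lower r (0.67, exact permutation p = 0.132, adjusted p = 0.396) than Prkaa2 with Ppargc1a (0.81, exact permutation p = 0.0681, adjusted p = 0.396). In DOX+AICAR the relation of Ppargc1a with Tfam had the opposite sign (Pearson r = -0.77, exact permutation p = 0.0792, adjusted p = 0.356). Its Spearman rho was -0.66 (exact permutation p = 0.175, adjusted p = 0.446). Without animals 7 and 11, r was -0.997 over only animals 8, 9, 10 and 12. With median-of-ratios factors and all animals, r was -0.52 (exact permutation p = 0.265, adjusted p = 0.477). The difference between the groups was not tested.

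**Figure D5:**
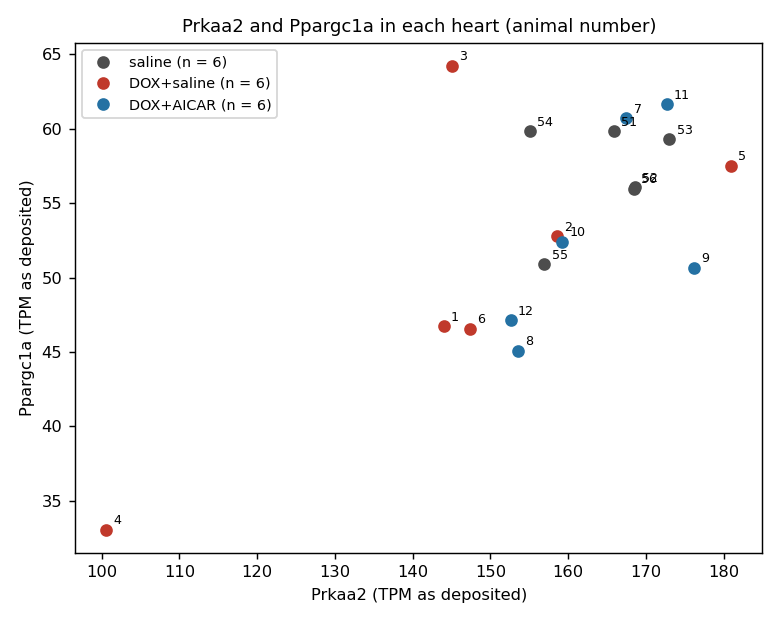
Ppargc1a TPM (vertical axis) against Prkaa2 TPM (horizontal axis) in each of the 18 hearts, coloured by group and labelled with the animal number; the axes do not start at 0. DOX+saline animal 4 stands alone at 101 and 33.1 TPM, and DOX+saline animal 3 has the highest Ppargc1a at 64.2 TPM with 145 TPM of Prkaa2.

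Likeness of pattern was described by the Pearson correlation of deviations from the group means of log2(TPM + 1) over the 18 libraries, which share library preparation and a fixed total. By this measure Ppargc1a was the 161st of 14731 genes most like Prkaa2 (r = 0.76), and Prkaa2 the 113th most like Ppargc1a, where the median over all genes was 0.05 for either. Without DOX+saline animal 4 the value was 0.43 and the ranks 1304 and 1258. Prkaa1 ranked 2106th in likeness to Prkaa2 (r = 0.41) and Tfam 2503rd (r = 0.37). Without that animal Prkaa1 ranked 1308th (r = 0.43), next to Ppargc1a, and Tfam 4954th (r = 0.14). The gene most like Prkaa2 was ENSRNOG00000010859 (r = 0.94), with group means of 46.2 TPM (saline), 38.03 TPM (DOX+saline) and 41.4 TPM (DOX+AICAR), which fell by 0.29 on the log2 scale after doxorubicin alone (limma adjusted p = 0.0103). Among genes that rose after doxorubicin the most like it was ENSRNOG00000014285 (r = 0.88, 17th of all), at 33.4, 39.5 and 40.4 TPM in the same order. Without animal 4 these correlations were 0.88 and 0.58.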

How the data were processed

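Heart RNA of 18 rats was sequenced, 6 per group. Per the labels' protocols, polyadenylated RNA was made into strand-specific, paired-end libraries. Per the submitters' processing notes, the authors used bcl2fastq 2.17.1.14, HISAT2 and featureCounts of Subread 1.5.0 on build Rnor_6.0; no source used here gives other settings. The authors deposited TPM values, which sum to 1000000 per library. Of 32545 identifiers 25878 were above 0 in some library, and all of these were solved to whole reads within 0.001 reads.

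Members and lists were chosen with earlier results of these data known. The 11 pathway lists fixed by gene symbol were not tested, since 0 identifiers matched the reference gene table. Sirt1 and its pairs, named in the planned design, are not reported. By rule, all members are named, and the most alike identifier per direction of the doxorubicin change for the member with the highest likeness.

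Limma 3.58.1 (R 4.3.3) was fitted with a mean-variance trend to log2(TPM + 1) of the 14732 genes that reached 1 TPM in 6 or more libraries, 1 mean per group over all 18 libraries, with 1 spread assumed for the groups. P-values were two-sided, with Benjamini-Hochberg adjustment over all genes and a threshold of 0.05. Log2 changes are of TPM + 1 and understate low genes. Ratios, sums and relations were tested with two-sided exact permutation tests (scipy 1.17.1, numpy 2.4.6), over 924 assignments for 6 against 6. The fit and the recovery of reads were tested on simulated data. In a simulated comparison of DOX+saline with saline the fit called 2 of 49 genes changed 1.25-fold and 15 of 50 changed 1.5-fold. It called 47 of 49 genes changed 2-fold, with 11 false calls. The simulated spread was a fixed setting and not that of the 4 genes. Far fewer genes were changed in the simulation than were called in the data, which made the adjusted threshold stricter in the simulation. These shares therefore do not show how often such changes would be called in the data. A gene without a call can still have a small change. Alternatives were other pseudocounts, filters, scalings, library weights, voom on recovered reads, fits on the 12 libraries compared, and leaving out each animal.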

Additional observations from a re-analysis of the deposited data

Results flagged for a closer look

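Of 33 groups of 6 values, 3 held an animal set apart from the other 5 by a fixed rule on the gap to its nearest neighbour; about 1 in 20 groups, 1.65 of these, would be by chance. In DOX+saline, animal 4 had a log2 ratio of Prkaa2 to Prkaa1 of 2.73, where the others had 3.16 to 3.38. In DOX+AICAR, animal 7 had 3.69, where the others had 3.26 to 3.33, and it lay above all 6 saline hearts. In DOX+saline, animal 3 had a log2 ratio of Prkaa2 to Ppargc1a of 1.18, where the others had 1.59 to 1.66. No single-gene level and no sum was set apart in this way.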

How the results depend on the processing

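The 21 values that answer a comparison had 519 alternative values, of which 474 were taken as unchanged. For levels, ratios and sums this meant the same direction and the same side of the threshold. For counts of called genes it meant a count close to the one as deposited. Of 27 alternatives, 27 met this in DOX+saline against saline, 10 in DOX+AICAR against DOX+saline and 27 in DOX+AICAR against saline. Values are log2 unless named otherwise, and the cause of each difference was not tested. With quantile normalization Prkaa1 was 0.076 in DOX+saline against saline and 0.082 in DOX+AICAR against saline, both no longer called, Prkaa2 was -0.22 in DOX+saline against saline and now called, and Prkaa1 had the opposite sign (0.0066) in DOX+AICAR against DOX+saline. With median-of-ratios factors Prkaa2 (-0.29) and Ppargc1a (-0.30) were called in DOX+saline against saline, the summed catalytic TPM of DOX+AICAR against saline turned to -10.2 TPM, and Pearson r in DOX+AICAR turned to -0.072 for Prkaa1 with Prkaa2 and to -0.14 for Prkaa1 with Tfam. With library weights Prkaa2 (-0.18) and Ppargc1a (-0.24) were called in DOX+saline against saline, and Prkaa1 turned to 0.0050 in DOX+AICAR against DOX+saline. Genes called in DOX+AICAR against DOX+saline, 196 as deposited, numbered 321 with quantile normalization, 16 with only those 12 libraries and 1058 with library weights, and from 36, with animal 10 of DOX+AICAR left out, to 461, with animal 2 of DOX+saline left out.

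Leaving out each animal gave, for DOX+saline against saline, -0.26 to -0.089 for Prkaa2, -0.28 to -0.096 for Ppargc1a, -0.14 to -0.11 for Tfam, -23.3 to -6.67 TPM for the summed catalytic TPM, and log2 ratios of -0.013 to 0.094 for Prkaa2 to Ppargc1a, -0.11 to 0.020 for Prkaa2 to Tfam and -0.15 to 0.011 for Ppargc1a to Tfam. For DOX+AICAR against DOX+saline it gave -0.037 to 0.050 for Prkaa1, -0.016 to 0.17 for Ppargc1a, 0.11 to 0.24 for the ratio of Prkaa2 to Prkaa1 and 8.21 to 24.9 TPM for the sum. For DOX+AICAR against saline it gave -0.032 to 0.0095 for Prkaa2 and -1.32 to 3.77 TPM for the sum. The least covered value rests on 646 reads (Prkaa1 in a saline heart). No paired analysis was possible because no animal number is shared between groups.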
